A study of Homo sapiens with 4 samples.

Results

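The 39 HOX genes of the human genome lie in 4 clusters, HOXA, HOXB, HOXC and HOXD, and this account covers the 27 of them that the array annotation ties to a single probe set symbol, out of 18417 genes measured. Members were taken by name alone, as HOXA, HOXB, HOXC or HOXD followed by a paralog number from 1 to 13, and each turned out to have 1 probe set. All 10 HOXB genes and all 9 HOXD genes were measured, with 7 of 9 HOXC genes and 1 of 11 HOXA genes, HOXA2. HOXC4 and HOXC6 share a probe set and were not tested, and the other HOXA genes were not analysed here.

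HOX genes encode homeodomain transcription factors that give cells along the body axis their positional identity. In each cluster the paralogs of low number lie at the end that is active toward the head, and those of high number at the end that is active toward the tail, in the distal limb and in the urogenital tract. Adult tissues and many cell lines keep part of this code. In the prostate it is the posterior genes, HOXB13 above all, that are known for a role in development and in androgen receptor function.

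By the labels the cells were PC3, a cell line of metastatic prostate cancer established from bone. Their RNA was hybridized to Affymetrix HuGene-1.0-st-v1 arrays. The PC3-PDEF group (2 arrays) overexpressed PDEF, an ETS transcription factor that the gene SPDEF encodes. The PC3-SCR group (2 arrays) held the empty pBABE vector, which the labels call a control vector. Both groups grew in the same serum-containing medium. The cells were stably transfected. Whether a line was a clone or a pool, and whether replicate arrays stand for separate cultures, is not given in the sources used here, and the p-values therefore rest on a spread that may be technical.

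Values are log2 signals as deposited. The array medians lay between 5.41 and 5.46, and Pearson's r over all probe sets was 0.994 or higher within the groups and 0.954 to 0.956 between them. SPDEF signals were 6.85 and 6.73 in PC3-PDEF and 5.99 and 6.06 in PC3-SCR (log2 fold change 0.77, adjusted p = 0.000563). This is a 1.7-fold rise, and the PC3-SCR signals lay just above the background gauge described below (5.94 and 6.01). CTNNA1 and STAT3, which other work found to be homozygously deleted in PC3 cells, gave 9.76 and 9.86 and 9.06 and 9.05 in the PC3-PDEF arrays, against 4.77 and 4.07 and 4.51 and 4.70 in the PC3-SCR arrays. The PC3-PDEF arrays thus go against their label at these genes, and PDEF expression and any other difference between the cells of the groups cannot be told apart in the results that follow. Of 5 measured neuronal markers 3 rose, with the log2 of their summed signal at 11.14 and 11.30 in PC3-PDEF against 7.68 and 7.68 in PC3-SCR, and of 7 kidney progenitor markers 3 rose and 1 fell (9.57 and 9.49 against 9.03 and 9.06). Of 5 general epithelial markers 3 fell (10.29 and 10.38 against 11.03 and 10.96), as did 3 of 7 fibroblast (8.18 and 8.06 against 9.18 and 8.98), 3 of 5 endothelial (6.56 and 6.54 against 7.66 and 7.85) and 1 of 5 leukocyte markers (7.73 and 7.79 against 9.70 and 9.60). Among the fibroblast markers only COL1A1 was above background (7.29 and 7.10 in PC3-PDEF, 8.66 and 8.41 in PC3-SCR). The other fibroblast markers that fell, COL1A2 and LUM, were at background on all 4 arrays. Among the leukocyte markers only CD68 was above background (7.31 and 7.41 in PC3-PDEF, 9.60 and 9.48 in PC3-SCR). Among the endothelial markers only KDR was, and in PC3-SCR alone (6.95 and 7.15, against 4.78 and 4.87 in PC3-PDEF). The neuronal markers STMN2 and DCX were at background on all 4 arrays. Of all genes 26.7% rose and 24.0% fell, and the part of these markers in the HOX results was not tested. Of 5 measured prostate markers 1 rose and 1 fell. KLK3, KLK2 and ACP3 were at background on all 4 arrays, and ACP3 was called higher there (log2 fold change 0.30, adjusted p = 0.0216). SLC45A3 and HOXB13 were above background on all 4, and SLC45A3 fell by 0.48 (adjusted p = 0.00359).

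Background was gauged by the highest of 338 olfactory receptor genes, on the assumption that these cells do not transcribe them. A receptor gene that is transcribed would set the gauge too high, and which gene set it is not given here. This gauge stood at 5.65 and 5.75 in the PC3-PDEF arrays and at 5.94 and 6.01 in the PC3-SCR arrays. By this measure 18 of the 27 HOX genes were above background on both PC3-PDEF arrays and 9 on both PC3-SCR arrays, where the shares of all genes were 56.0% and 51.1%. The genes above it in both groups numbered 8, namely HOXB4, HOXB6, HOXB9, HOXB13, HOXC13, HOXD1, HOXD9 and HOXD13. HOXA2 passed it in PC3-SCR alone, and 10 genes passed it on both PC3-PDEF arrays but not on both PC3-SCR arrays. The gauge was lower in the PC3-PDEF arrays, so this is not a count of rises. HOXB3, among the 10, had a log2 fold change of -0.25. Another 7 genes, HOXB1, HOXB5, HOXC5, HOXC11, HOXC12, HOXD3 and HOXD12, were at background on all 4 arrays. The counts depend on the gauge, since 14 and 9 genes passed the single highest olfactory receptor value of any array, and 25 and 23 passed the 95th percentile of these genes. In bulk RNA, fewer cells with a transcript and less transcript per cell cannot be told apart.

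More HOX genes were higher than lower in PC3-PDEF cells as compared to PC3-SCR cells. By limma at an adjusted p under 0.05, 13 of the 27 rose and 2 fell, and the other 12 did not pass. This is 48.1% higher and 7.41% lower, where 26.7% of all genes were higher and 24.0% lower, 50.7% in either direction. By the fitted fold change, 5 HOX genes were higher by 2-fold or more (18.5%, against 8.67% of all genes) and 1 was lower (6.05% of all genes). Of these, HOXC10, HOXD10, HOXD11 and HOXD13 also passed 2-fold where a group at background was set at the gauge, whereas HOXB2 and HOXA2 did not. The median log2 fold change was 0.20 for the HOX genes and -0.05 for all genes. The PC3-PDEF arrays lay above both PC3-SCR arrays for 14 members and below both for 5, where 35.0% and 39.7% of all genes did so. With the 2 PC3-PDEF arrays and then the 2 PC3-SCR arrays left out singly, 10, 10, 10 and 11 members were higher, where 17.9%, 16.3%, 19.7% and 19.6% of all genes were. The calls of 11 genes, HOXA2, HOXB2, HOXB7, HOXC9, HOXC10, HOXC11, HOXC13, HOXD8, HOXD10, HOXD11 and HOXD13, held in every alternative that kept the gene. Of these only HOXC13, HOXD10 and HOXD13 were kept by the filter on low signals, so the others did not face it. HOXC11 was at background on all 4 arrays.

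**Figure D1:**
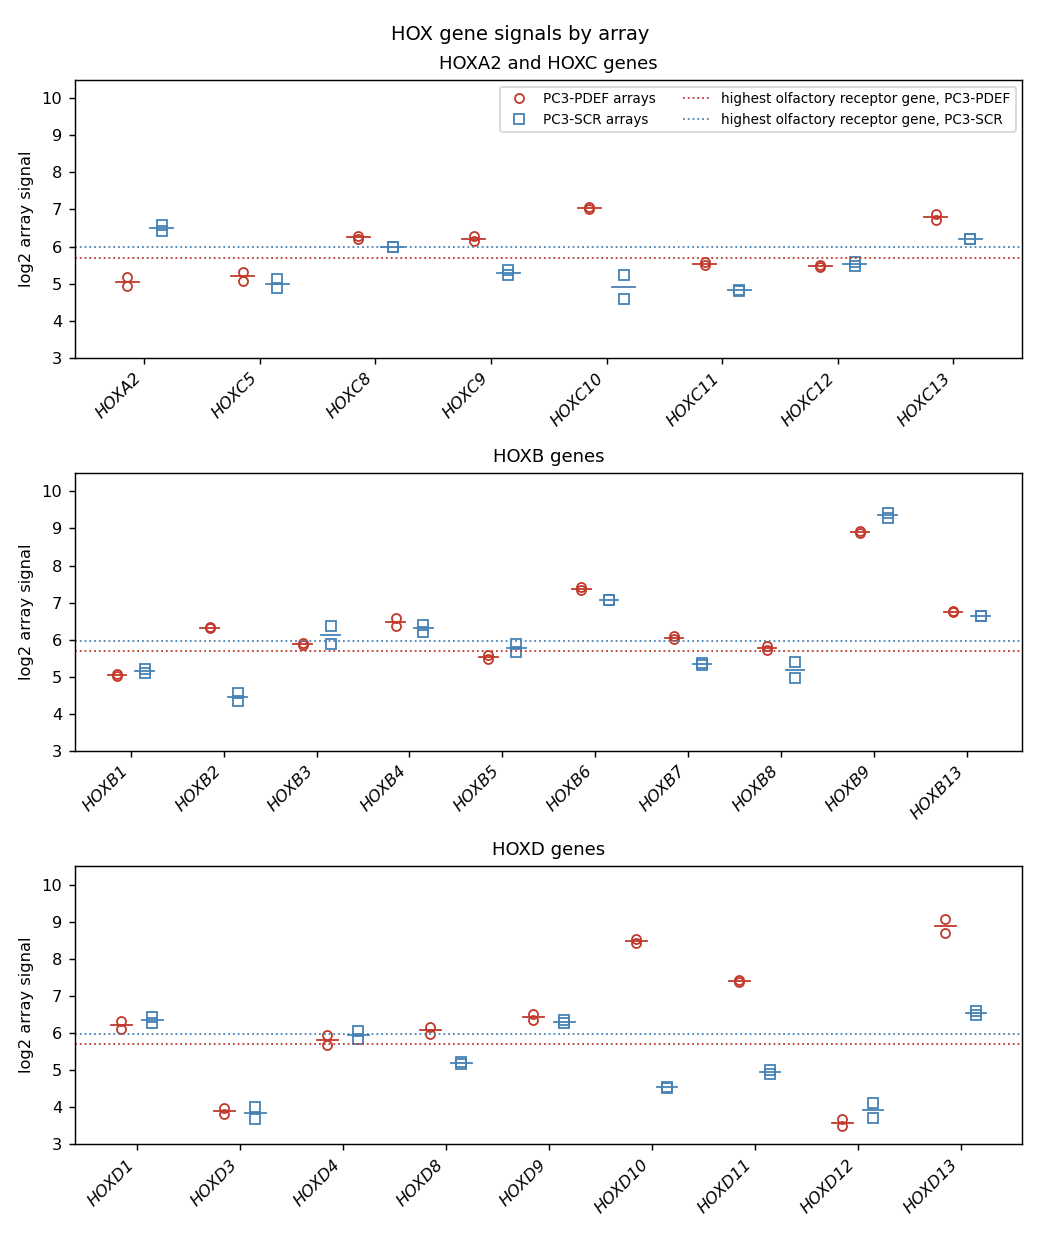
Log2 array signal (vertical axis) of each measured HOX gene (horizontal axis) on the 2 PC3-PDEF arrays (red circles) and the 2 PC3-SCR arrays (blue squares), with the group mean as a short line and the mean over a group's arrays of the highest olfactory receptor gene as a dotted line. HOXD10 lies at 8.42 and 8.53 in PC3-PDEF against 4.51 and 4.55 in PC3-SCR, while HOXB13 lies at 6.78 and 6.74 against 6.63 and 6.65.

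The posterior HOXD genes showed the largest rises of the family. HOXD10, which in mice patterns the hindlimb and its motor neurons, had signals of 8.42 and 8.53 in PC3-PDEF and of 4.51 and 4.55 in PC3-SCR. Both PC3-SCR values were at background, so the rise of 3.94 on the log2 scale (adjusted p = 2.66e-06, standard error 0.0859) was one of at least 5.66-fold against the gauge. HOXD11, which with its HOXA paralog shapes the forearm and the kidney in mice, had 7.36 and 7.42 in PC3-PDEF and 5.00 and 4.90 in PC3-SCR, again at background in the control, and rose by 2.44 (standard error 0.0859, adjusted p = 6.02e-06), at least 2.67-fold. HOXD13, the last gene of the cluster, known for digit malformations when mutated, had 9.08 and 8.70 in PC3-PDEF and 6.59 and 6.48 in PC3-SCR. It was above background on all 4 arrays and rose 5.12-fold (2.35 on the log2 scale, adjusted p = 3.4e-05, standard error 0.137).

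The rise was not shared by every gene of that stretch. HOXD12, which lies between HOXD13 and HOXD11, had 3.67 and 3.48 in PC3-PDEF and 4.11 and 3.70 in PC3-SCR, at background throughout (log2 fold change -0.33, adjusted p = 0.116). HOXD9, next to HOXD10, was above background on all arrays with 6.50 and 6.34 in PC3-PDEF and 6.35 and 6.26 in PC3-SCR (log2 fold change 0.11, adjusted p = 0.355), and its groups overlapped. HOXD8, the next gene, rose by 0.89 (adjusted p = 0.000391), at least 1.06-fold against the gauge, with 6.15 and 5.98 in PC3-PDEF and with 5.15 and 5.21, at background, in PC3-SCR. HOXD4, HOXD3 and HOXD1, at the other end of the cluster, had log2 fold changes of -0.13, 0.06 and -0.14, and their groups overlapped. HOXD1 was above background on all arrays (6.32 and 6.10 in PC3-PDEF, 6.26 and 6.43 in PC3-SCR).

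**Figure D2:**
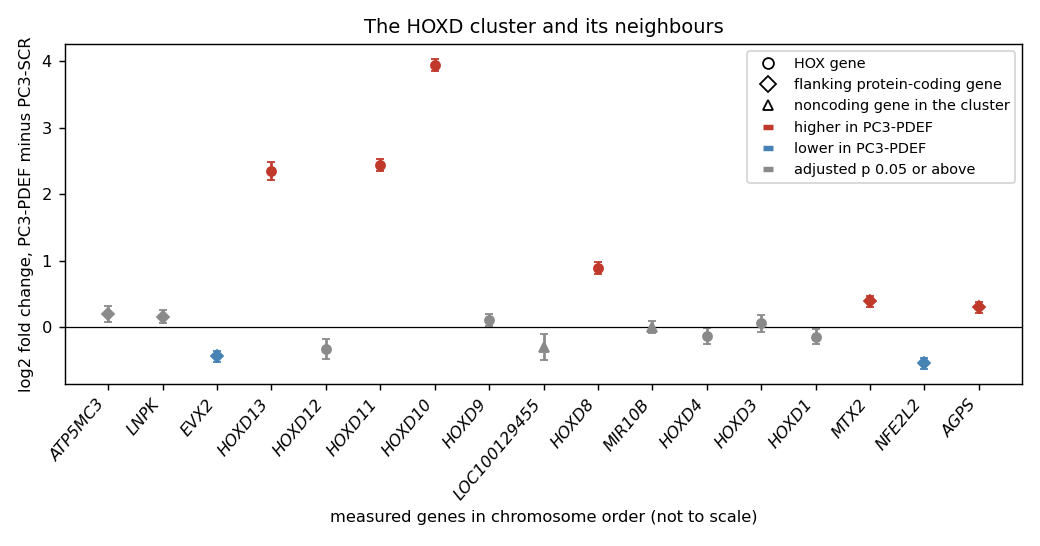
Log2 fold change of PC3-PDEF minus PC3-SCR (vertical axis, bars are standard errors, 2 arrays per group) for the measured HOX genes (circles) and noncoding genes (triangles) of the HOXD cluster and the 3 nearest measured protein-coding genes on each side (diamonds), coloured red where higher, blue where lower and grey where not called, in chromosome order but not to scale (horizontal axis). HOXD13, HOXD11 and HOXD10 stand at 2.35, 2.44 and 3.94 and HOXD8 at 0.89, whereas HOXD12 and HOXD9 stand at -0.33 and 0.11.

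Start-site sequence was available for 11 of the 27 members in the RefSeq table of assembly GRCh38.p14. The 250 bases before the annotated start are printed for HOXD13, HOXD12, HOXD11 and HOXD10, because these neighbours on the same stretch of chromosome 2 split into genes that rose and one that did not pass the test, and for HOXA2, the member that fell most. The windows are chr2:176092471-176092720, chr2:176099545-176099794, chr2:176107030-176107279 and chr2:176116528-176116777 on the plus strand and chr7:27102684-27102933 on the minus strand. Capitals mark any match, on either strand, to 1 of 4 motifs. The core that PDEF is known to prefer among ETS factors was searched as GGATGT. The site common to most other ETS factors was searched as CCGGAAG. A joint site of HOX and PBX proteins was searched as TGATNNAT, and the TATA box as TATAAA.
HOXD13: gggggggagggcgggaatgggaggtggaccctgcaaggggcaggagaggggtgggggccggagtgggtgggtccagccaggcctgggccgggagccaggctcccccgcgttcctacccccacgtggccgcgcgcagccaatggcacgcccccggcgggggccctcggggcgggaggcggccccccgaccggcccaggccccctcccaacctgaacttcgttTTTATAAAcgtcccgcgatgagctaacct
HOXD12: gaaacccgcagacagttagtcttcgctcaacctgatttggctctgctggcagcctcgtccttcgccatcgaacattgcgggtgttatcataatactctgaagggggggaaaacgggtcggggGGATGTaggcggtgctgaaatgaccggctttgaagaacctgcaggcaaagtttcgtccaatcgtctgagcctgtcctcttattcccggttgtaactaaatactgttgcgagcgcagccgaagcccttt
HOXD11: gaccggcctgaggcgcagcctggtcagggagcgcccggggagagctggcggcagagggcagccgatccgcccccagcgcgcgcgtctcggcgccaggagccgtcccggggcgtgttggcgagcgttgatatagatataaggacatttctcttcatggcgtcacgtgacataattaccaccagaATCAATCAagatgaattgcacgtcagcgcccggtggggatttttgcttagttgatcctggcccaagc
HOXD10: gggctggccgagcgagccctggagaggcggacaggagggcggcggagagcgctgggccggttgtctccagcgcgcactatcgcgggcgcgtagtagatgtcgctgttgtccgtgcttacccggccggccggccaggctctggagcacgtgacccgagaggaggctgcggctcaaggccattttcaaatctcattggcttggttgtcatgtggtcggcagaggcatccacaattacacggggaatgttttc
HOXA2: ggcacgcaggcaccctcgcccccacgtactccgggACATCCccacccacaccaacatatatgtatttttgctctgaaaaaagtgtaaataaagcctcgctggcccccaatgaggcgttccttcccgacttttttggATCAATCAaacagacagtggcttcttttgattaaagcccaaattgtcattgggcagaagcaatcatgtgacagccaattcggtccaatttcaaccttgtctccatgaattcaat

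None of the 4 matched members that rose held GGATGT, which was found in HOXD12 and HOXA2 and in 8.43% of 35116 RefSeq windows. CCGGAAG was found in none of the 11 HOX windows and in 8.52% of all windows. TGATNNAT occurred in 3 HOX windows, HOXA2, HOXB1 and HOXD11 (6.47% of all), and TATAAA in HOXD13, where its matches on the 2 strands overlap (10.7% of all). HOX windows held a median of 21 CpG dinucleotides, with 4 in HOXD4 and 31 in HOXD1 at the ends of the range, against a median of 11 over all windows. Among the windows printed there were 21 in HOXD13, 16 in HOXD12, 23 in HOXD11 and in HOXD10 and 8 in HOXA2. A match of letters is a description of the window and not a binding site.

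In the HOXC cluster, 5 of 7 measured genes rose and none fell, where 26.7% of all genes rose and 24.0% fell. HOXC10, which patterns the lumbar spinal cord and hindlimb in mice, had 7.06 and 7.02 in PC3-PDEF, against 5.22 and 4.58, at background, in PC3-SCR. It rose by 2.14 (standard error 0.198, adjusted p = 0.000217), at least 2.09-fold against the gauge, and its PC3-SCR arrays differed by 0.64, the widest gap within a group among the members. HOXC9, which sets thoracic motor neuron identity in mice, had 6.14 and 6.28 in PC3-PDEF and 5.22 and 5.36, at background, in PC3-SCR. It rose by 0.92 (adjusted p = 0.000376), at least 1.18-fold against the gauge. HOXC13, a regulator of hair and nail keratins, was above background in both groups, with 6.72 and 6.88 in PC3-PDEF and 6.21 and 6.20 in PC3-SCR, and rose by 0.59 (adjusted p = 0.00199). HOXC11 rose by 0.72 (adjusted p = 0.000584) with all arrays at background, between 5.49 and 5.59 in PC3-PDEF and between 4.80 and 4.83 in PC3-SCR, so its size is not exact. HOXC8 had 6.20 and 6.29 in PC3-PDEF and 5.99 and 6.00 in PC3-SCR (log2 fold change 0.25, adjusted p = 0.0459). This call was lost without any 1 of the arrays, where the adjusted p lay between 0.0824 and 0.149, and with the replicate number as a block (adjusted p = 0.0704). HOXC12 and HOXC5 were at background and had log2 fold changes of -0.05 and 0.20.

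HOXB genes moved in both directions, mostly by less than 2-fold. HOXB2, which takes part in the patterning of the hindbrain, was the exception by the fitted fold change alone. It had 6.34 and 6.31 in PC3-PDEF against 4.35 and 4.57, at background, in PC3-SCR. It rose by 1.86 (adjusted p = 2.71e-05, standard error 0.101), at least 1.27-fold against the gauge. HOXB7, a mid-trunk gene often studied in breast and other carcinomas, had 6.09 and 6.01 in PC3-PDEF and 5.36 and 5.31, at background, in PC3-SCR. It rose by 0.71 (adjusted p = 0.00059), at least 1.05-fold against the gauge. HOXB8 had 5.72 and 5.83 in PC3-PDEF and 4.96 and 5.40, at background, in PC3-SCR. It was called higher (log2 fold change 0.59, adjusted p = 0.017), but its PC3-PDEF signals lay below the PC3-SCR gauge, so no size can be given. HOXB6 was above background on all arrays, with 7.34 and 7.41 in PC3-PDEF and 7.07 and 7.07 in PC3-SCR, and rose by 0.30 (adjusted p = 0.021). HOXB9, a gene of the thoracic skeleton in mice, was also above it on all arrays, with 8.94 and 8.89 in PC3-PDEF and 9.43 and 9.29 in PC3-SCR, and fell by 0.44 (adjusted p = 0.00666), a 1.36-fold lower level. These calls were lost with some arrays left out. HOXB6 had an adjusted p between 0.0664 and 0.0978 without any 1 array, HOXB8 between 0.0753 and 0.224 without either PC3-PDEF array or PC3-SCR replicate 1, and HOXB9 between 0.0537 and 0.0893 without the same arrays.

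HOXB13 is the HOX gene most tied to prostate identity, and its level differed little between the groups. Signals were 6.78 and 6.74 in PC3-PDEF and 6.63 and 6.65 in PC3-SCR, above background on every array, a difference of 0.12 on the log2 scale (adjusted p = 0.259, standard error 0.0803). The groups did not overlap, but the difference did not pass the test. PRAC1, a small nuclear protein gene of prostate and distal colon that lies beside HOXB13 within the cluster, had 5.02 and 4.73 in PC3-PDEF, at background, against 6.85 and 6.76 in PC3-SCR. It fell by 1.93 (adjusted p = 3.94e-05), at least 2.15-fold against the gauge. PRAC1 is not a HOX gene and was chosen after its values were seen. HOXB4, known for the expansion of blood stem cells, had 6.38 and 6.58 in PC3-PDEF and 6.22 and 6.39 in PC3-SCR, and these groups overlapped (adjusted p = 0.227). HOXB3 had 5.90 and 5.86 in PC3-PDEF and 6.38 and 5.88 in PC3-SCR (log2 fold change -0.25, adjusted p = 0.247). The value rested on which PC3-SCR array was used, at -0.50 without replicate 2 (adjusted p = 0.0325) and 0.00 without replicate 1. HOXB5 and HOXB1 were at background, and their log2 fold changes were -0.24 and -0.10, with adjusted p of 0.0956 and 0.368. HOXB5 fell at an adjusted p of 0.0421 under median centring over genes.

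HOXA2, which in mice gives the second pharyngeal arch its identity, was the member with the largest fall. It had 4.93 and 5.18, at background, in PC3-PDEF and 6.57 and 6.42 in PC3-SCR, where it was above background on both arrays. It fell by 1.44 (standard error 0.114, adjusted p = 0.000114), at least 1.74-fold against the gauge. Its paralog HOXB2 moved the other way in the same arrays.

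**Figure D3:**
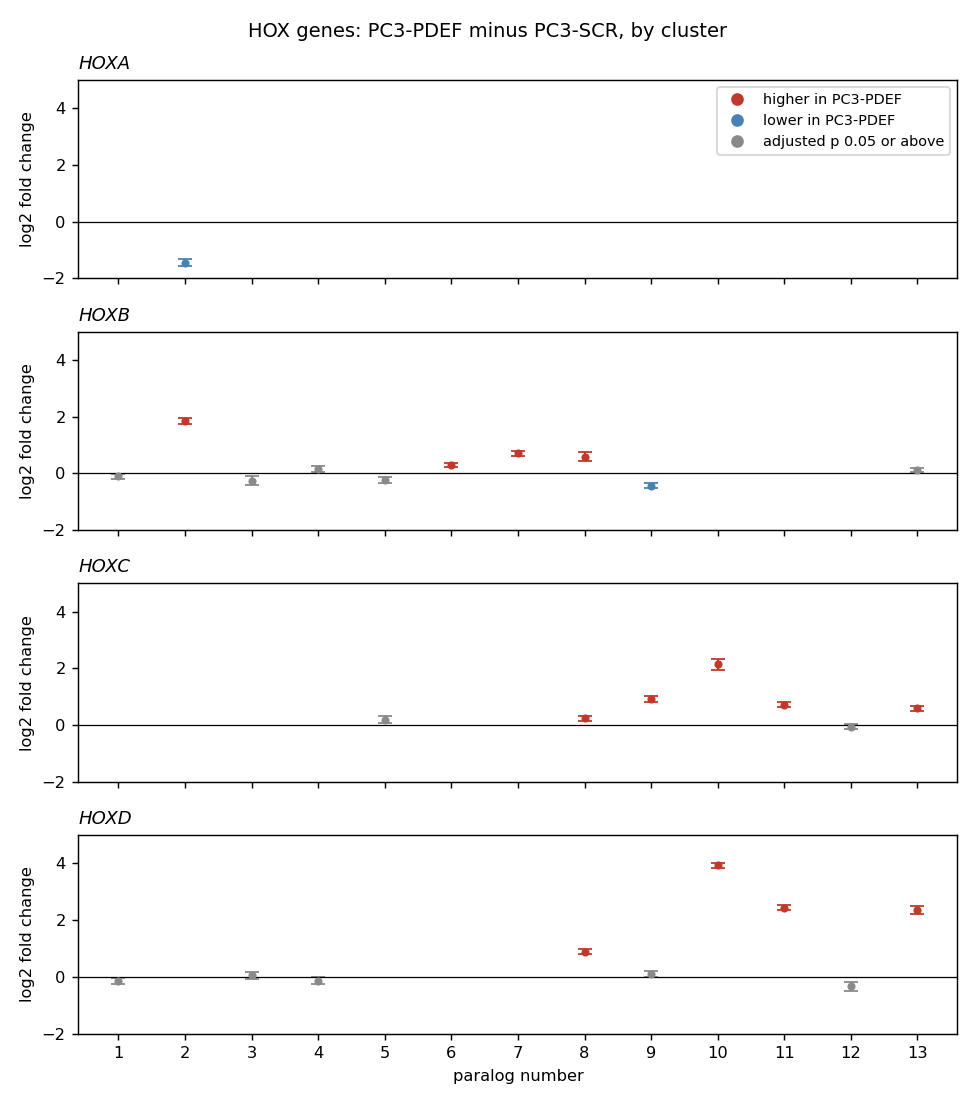
Log2 fold change of PC3-PDEF minus PC3-SCR (vertical axes, bars are standard errors, 2 arrays per group) of each measured HOX gene by paralog number (horizontal axis), with 1 panel per cluster. Genes higher at an adjusted p under 0.05 (red) include every measured gene of paralog numbers 6, 7, 8, 10 and 11, those lower (blue) are HOXA2 and HOXB9, and the 12 others are grey.

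Read by paralog number, the calls were shared within some groups and divided in others. All 3 measured genes of number 8 rose, as did both of number 10 and both of number 11, and the single genes of numbers 6 and 7. For number 13, HOXC13 and HOXD13 rose and HOXB13 did not pass the test. For number 9, HOXC9 rose, HOXB9 fell and HOXD9 did not pass. For number 2 the members moved in opposite directions. Of the genes called, HOXB6, HOXB8, HOXB9 and HOXC8 did not keep the call in every alternative, and HOXC11 was at background on all 4 arrays. None of the 10 genes of numbers 1, 3, 4, 5 and 12 passed the test, and of these only HOXB4 and HOXD1 were above background on all 4 arrays.
In the posterior part of the clusters (numbers 9 to 13) 7 of 12 genes rose and 1 fell, with a median log2 fold change of 0.66. The central genes (4 to 8) had 5 of 9 higher and none lower, with a median of 0.25. Of these 5, only HOXB7 and HOXD8 kept the call in every alternative that kept the gene. The anterior genes (1 to 3) had 1 of 6 higher and 1 lower, with a median of -0.12. Over all genes 26.7% were higher and 24.0% lower, and the 6 anterior genes are too few to be set apart from these shares. The 4 genes that rose by 2-fold or more also against the gauge, HOXC10, HOXD10, HOXD11 and HOXD13, were posterior. Within the posterior part the median was 2.35 for the 5 HOXD genes, 0.72 for the 5 HOXC genes and -0.16 for the 2 HOXB genes. These medians are descriptions over neighbouring genes, and differences between these parts or between clusters were not tested. Neighbouring HOX genes can share exons and paralogs share homeobox sequence, so signal may be split between members, HOXC4 to HOXC6 above all.

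HOX proteins bind DNA with partners of the TALE homeodomain class, the PBX, MEIS and PKNOX proteins. Of 7 such genes measured, of 9 listed, 5 rose and 1 fell, where 26.7% of all genes rose and 24.0% fell, and their median log2 fold change was 0.51. MEIS1 had 6.92 and 6.93 in PC3-PDEF, against 4.88 and 5.44, at background, in PC3-SCR, and rose by 1.76 (adjusted p = 0.000305), at least 1.93-fold. MEIS2 had 6.49 and 6.70 in PC3-PDEF and 5.78 and 5.78, at background, in PC3-SCR and rose by 0.81, at least 1.54-fold. PKNOX2 rose by 1.02, at least 1.71-fold, with 6.65 and 6.84 in PC3-PDEF and 5.68 and 5.76, at background, in PC3-SCR. PBX3 and PKNOX1, above background in both groups, rose by 0.50 and 0.51. PBX4 fell by 0.27 (adjusted p = 0.0486), and MEIS3, at background, had a log2 fold change of -0.01. With 1 array left out, only 2 or 3 members were higher and none was lower. MEIS1 missed the threshold without PC3-PDEF replicate 1 or 2 (adjusted p = 0.052 and 0.0542), PBX3 without any array but PC3-PDEF replicate 1 (0.0548 to 0.0848), and PKNOX1 and PBX4 without any 1 of the 4 (0.0663 to 0.145 and 0.0544 to 0.205).

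Retinoic acid is the signal best known to switch on HOX clusters from their anterior end. Of 15 genes of its synthesis, breakdown and receptors measured, of 18 listed, 4 rose and 5 fell, with a median log2 fold change of 0.01. These counts are close to the 26.7% and 24.0% of all genes, and the higher count was 2 without either PC3-PDEF array. ALDH1A3, which makes retinoic acid from retinal, had 7.87 and 7.71 in PC3-PDEF and 11.01 and 11.03 in PC3-SCR and fell by 3.23 (adjusted p = 3.49e-06), a 9.38-fold lower level. The mean of its 2 probe sets gave a smaller fall, with a log2 fold change of -2.54 for ALDH1A3. STRA6, the cell surface receptor that takes up retinol, had 5.49 on both PC3-PDEF arrays, at background, and 7.03 and 7.01 in PC3-SCR, and fell by 1.53, at least 2.5-fold. RARB, a receptor gene that retinoic acid itself induces in many cells, rose by 1.14, at least 1.39-fold, with 6.47 and 6.42 in PC3-PDEF against 5.17 and 5.45, at background, in PC3-SCR. ALDH1A2, the main retinoic acid source of the early embryo, rose by 0.96, with 5.82 and 6.14 in PC3-PDEF and 4.92 and 5.11, at background, in PC3-SCR. Its PC3-PDEF signals were close to the PC3-SCR gauge, and its call was lost without PC3-SCR replicate 1 (adjusted p = 0.0613).

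**Figure D4:**
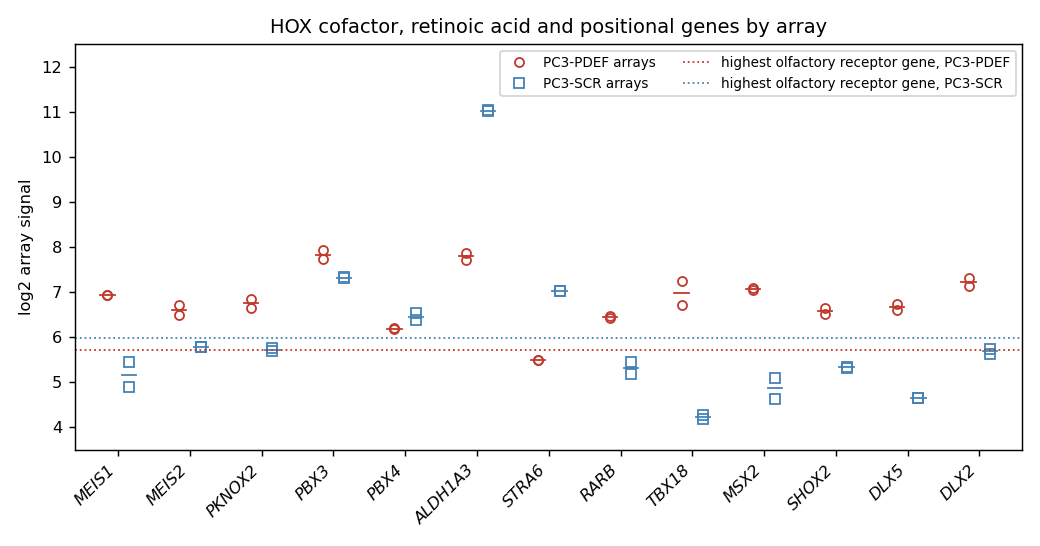
Log2 array signal (vertical axis) of cofactor, retinoic acid and positional genes (horizontal axis) on the 2 PC3-PDEF arrays (red circles) and the 2 PC3-SCR arrays (blue squares), with group means as short lines and the mean over a group's arrays of the highest olfactory receptor gene as dotted lines. ALDH1A3 lies at 7.87 and 7.71 in PC3-PDEF against 11.01 and 11.03 in PC3-SCR, and MEIS1 at 6.92 and 6.93 against 4.88 and 5.44.

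Trithorax and Polycomb complexes keep HOX genes on or off. Of 11 genes on the activating side 7 rose and 1 fell, where 26.7% of all genes rose and 24.0% fell, with a median log2 fold change of 0.50. WDR5 and ASH2L, core subunits of the MLL methyltransferase complexes, rose by 1.53 and 0.96, and PSIP1, which tethers MLL to chromatin, rose by 0.79. RBBP5, another core subunit, fell by 0.75, with 8.05 and 8.09 in PC3-PDEF and 8.81 and 8.83 in PC3-SCR. Of 8 measured genes on the repressing side, of 12 listed, 4 rose and none fell, with a median of 0.49. These were SUZ12, EED and EZH2, the core of Polycomb complex PRC2, by 1.40, 1.09 and 0.59, and PHC1 of complex PRC1 by 1.19. SUZ12 had 10.06 and 10.15 in PC3-PDEF and 8.80 and 8.62 in PC3-SCR. All members of both lists were above background on all arrays.

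Other genes of positional identity were called in part, to be read against 26.7% of all genes higher and 24.0% lower. Of 15 measured limb and trunk genes, of 16 listed, 6 rose and 1 fell, with a median of 0.15. TBX18, of the sinus node and ureter mesenchyme, had 6.70 and 7.25 in PC3-PDEF, against 4.18 and 4.27, at background, in PC3-SCR, a log2 fold change of 2.75 (adjusted p = 4.87e-05) and at least 2.0-fold. MSX2, of limb and skull, rose by 2.21 with 7.05 and 7.08 in PC3-PDEF and 5.10 and 4.62 in PC3-SCR, at least 2.13-fold, and SHOX2, of the proximal limb, by 1.25, at least 1.52-fold. TBX3, mutated in ulnar-mammary syndrome, fell by 0.84. Among 13 head homeobox genes 4 rose and 1 fell, with 2 higher without PC3-PDEF replicate 2. DLX5 and DLX2, of the jaw and forebrain, rose by 2.02 and 1.53, at least 1.62-fold and 2.37-fold, DLX6 rose by 0.71 and the eye gene SIX6 fell by 0.34. The DLX6 call was lost without PC3-PDEF replicate 1 or 2 (adjusted p = 0.0662 and 0.0576), and the SIX6 call without any 1 array (0.0524 to 0.0699). Of 8 ParaHox and EVX genes 1 rose and 2 fell. CDX2, an intestinal factor that activates HOX genes in the embryo, rose by 0.81, with 7.63 and 7.32 in PC3-PDEF and 6.68 and 6.66 in PC3-SCR. EVX2 and GSX1 fell by 0.44 and 0.31. The CDX2 call was lost without PC3-SCR replicate 1 or 2 (adjusted p = 0.0654 and 0.068), that of EVX2 without any array but PC3-SCR replicate 2 (0.0506 to 0.0618) and that of GSX1 without any 1 array (0.0615 to 0.217).

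**Figure D5:**
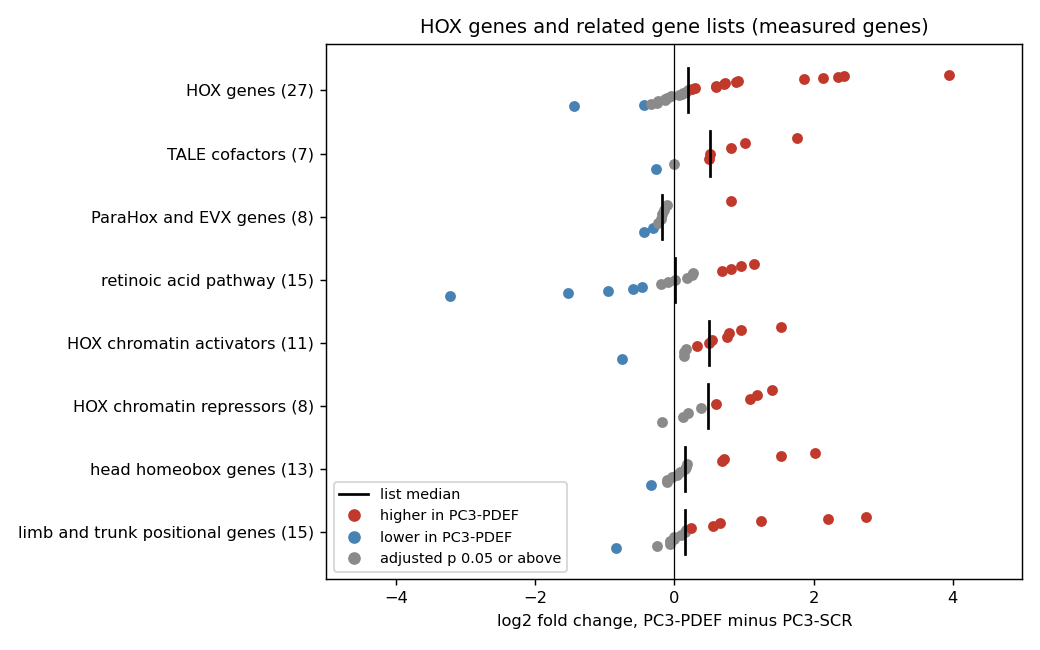
Log2 fold change of PC3-PDEF minus PC3-SCR (horizontal axis) of each measured gene in the HOX family and in 7 related lists (vertical axis, number measured in parentheses), coloured red where higher, blue where lower and grey where not called, with the median of each list as a black line. HOXD10 at 3.94 and ALDH1A3 at -3.23 are the outermost points, and list medians run from -0.18 for ParaHox and EVX genes to 0.51 for TALE cofactors.

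Genes just outside the clusters moved by less than 2-fold. Among the 24 nearest measured protein-coding genes, 3 on each side of each cluster, 6 rose and 4 fell, no larger a share than the 26.7% and 24.0% of all genes, with a median log2 fold change of 0.00. Beside HOXD13, EVX2 fell by 0.44 and LNPK differed by 0.16, which did not pass the test (adjusted p = 0.209). Beyond HOXD1, MTX2 rose by 0.39. At the HOXC cluster SMUG1, a DNA repair gene, rose by 0.88 and ATP5MC2, an ATP synthase subunit gene, by 0.84. At the HOXA cluster HIBADH, a valine breakdown enzyme gene, fell by 0.96, and SNX10 rose by 0.55. Without PC3-PDEF replicate 1 or 2, only 2 flanking genes were higher and 2 lower, and without PC3-SCR replicate 1 there were 4 and 2. Of those named, the calls of SMUG1 (adjusted p = 0.0588 and 0.0857) and MTX2 (0.061 and 0.0606) were lost without either PC3-PDEF array, and that of EVX2 as given with the ParaHox genes.
Of 7 noncoding genes measured inside the clusters, HOXB-AS3 and MIR196A1 rose and MIR10A fell, near or below the 26.7% and 24.0% of all genes. HOXB-AS3 had 6.00 and 6.07 in PC3-PDEF and 5.66 and 5.81 in PC3-SCR (log2 fold change 0.30, adjusted p = 0.0347). It overlaps HOXB5 and HOXB6, and whether the array kept their strands apart is not given in the sources used here. MIR196A1 had 5.16 and 5.06 in PC3-PDEF and 4.61 and 4.50 in PC3-SCR, and MIR10A had 2.83 and 2.87 against 3.09 and 3.09, both at background, so neither value gives a miRNA level. No call among the 3 was kept without every array: HOXB-AS3 and MIR10A missed the threshold without any 1 of them (adjusted p = 0.0585 to 0.19 and 0.104 to 0.129), and MIR196A1 without PC3-PDEF replicate 1 (0.0551). The mature products of these loci are printed because miR-196a is known to pair with HOX transcripts and miR-10 genes sit beside paralog 4, with the seed (bases 2 to 8) in capitals, from the RefSeq table of GRCh38.p14 (chromosome 17).
hsa-miR-196a-5p: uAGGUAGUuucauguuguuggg
hsa-miR-10a-5p: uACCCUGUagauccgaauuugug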

How the data were processed

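The deposited table, which the authors made in Transcriptome Analysis Console per the labels, gives log2 signals for 33297 probe sets. How the arrays were corrected for background and normalized, and with which version, is not stated in those sources. That the scale is log2 was read from the span of the signals. They were used unchanged, and if arrays were scaled to each other, a shift common to all genes would not be seen.

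Names came from the platform annotation, with symbols updated by gene identifier to assembly GRCh38.p14. Of the probe sets, 19460 had a single symbol and entered the analysis. Those with several symbols (1754) or unnamed here (12083) did not. Where a gene had more than 1, the probe set of highest mean signal was taken, which gave 18417 genes. PC3-PDEF was set against PC3-SCR with the lmFit and eBayes functions of limma 3.58.1 under R 4.3.3, with the Benjamini-Hochberg adjustment over all genes and calls at an adjusted p under 0.05. The design has 2 residual and 4.23 prior degrees of freedom, and the number of arrays limits the precision. Permuting 2 and 2 arrays exactly, the smallest two-sided p is 0.333. limma was first tested on simulated data.

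A gene was above background on an array when it exceeded the highest olfactory receptor gene of that array, and otherwise is said to be at background. A fold written as "at least" sets the mean of the brighter group against the mean, over the arrays of the dimmer group, of that gauge or the gene's own value, whichever was higher.

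The HOX genes and the related lists were chosen with earlier results of these data known. All HOX genes are accounted for. In each related list, values are given for up to 4 genes with the largest log2 fold change in size among those called and above background on both arrays of a group. CTNNA1 and STAT3 are cell type markers, and PRAC1, PBX3, PBX4, MEIS3, MIR10A, MIR196A1, LNPK and MTX2 were added after their values were seen. Flanking and noncoding genes came from the RefSeq gene table.

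Alternatives were quantile normalization, median centring, a filter on low signals, the mean of all probe sets of a gene, an intensity trend in eBayes, the replicate number as a block, another gauge of background and leaving out each array in turn.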

Additional observations from a re-analysis of the deposited data

Results flagged for a closer look

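The probe set annotated to both HOXC6 and HOXC4 was outside the tested genes because it carries several symbols, and it showed a signal above the control level. It had log2 signals of 6.73 and 7.05 in PC3-PDEF, above background on both arrays, and of 5.85 and 5.61 in PC3-SCR, at background on both. The difference was 1.16 on the log2 scale, with no test. The deposited value cannot be divided between the 2 genes.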

How the results depend on the processing

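Of the 15 HOX calls, all 15 held under quantile normalization, under median centring over all probe sets and with the mean of all probe sets of a gene. HOXC8 was lost under median centring over genes (chosen after seeing the data, adjusted p = 0.111), with an intensity trend (0.0817) and with the replicate block (0.0704). Replicate numbers 1 and 2 occur in both groups, but deviations of same-numbered arrays correlated at 0.022 and the labels tie them to nothing else, so the arrays share only a number. With that replicate block 12 HOX genes were higher and 2 lower, and 4355 and 3619 of all genes. HOXB5 passed under median centring over genes (adjusted p = 0.0421). Among the genes above the median level, where 5 of the 15 were tested, 4 HOX genes were higher and 1 lower, with 2 higher and 0 lower by 2-fold or more. The filter leaves fewer members to test. With 1 array left out, 10 to 11 HOX genes were higher and 1 to 3 lower, 5 to 5 higher and 1 to 1 lower by 2-fold or more, with 3010 to 3635 of all genes higher and 2326 to 2856 lower. HOXD3, at background, changed sign to -0.01 under median centring over genes and lay between -0.09 and 0.22 with 1 array left out. MEIS3 had 0.02 under quantile normalization, 0.03 under median centring over all probe sets, and between -0.16 and 0.14 with 1 array left out. Of the flanking genes, 7 were lower under median centring over genes and 7 with the intensity trend. With the 95th percentile as the gauge, 23 HOX genes were above background in PC3-SCR.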
